A study of Mus musculus with 2 samples.

Results

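The miR-29 family was described across its arms and genomic copies in mouse liver. The animals were C57BL/6, wild type, fed ad libitum, and 2 to 3 months old. The labels give 1 group, called control, with 2 replicate libraries of small RNA, and no other genotype, treatment or time. Members were all listed rows named miR-29a, miR-29b or miR-29c, whatever their arm or copy. They were mmu-miR-29a-3p, mmu-miR-29a-5p, mmu-miR-29b-3p, mmu-miR-29b-1-5p, mmu-miR-29c-3p and mmu-miR-29c-5p (the prefix mmu, for mouse, is dropped from here on), 6 of the 197 named miRNAs listed in either library. Replicate 1 listed 4 of the members among 165 named miRNAs, and replicate 2 listed all 6 among 183. The labels do not say whether the libraries came from separate animals or a pool. Differences between the libraries may therefore be technical.

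A microRNA is cut from a stem-loop precursor, the hairpin, whose left and right strands are the 5p and 3p arms. Usually one arm is loaded into an Argonaute protein and kept, and its seed, bases 2 to 8, pairs with target mRNAs. The miR-29 family is best known for repressing mRNAs of collagens and other matrix proteins, and in liver it has been studied in hepatic stellate cells, fibrosis and insulin signalling. The 3p arms are its usual guide strands. Mouse has 4 miR-29 hairpins in 2 pairs, Mir29a with Mir29b-1 and Mir29b-2 with Mir29c, and the hairpins of a pair are transcribed together.

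The mature arms show what the members share and where they part, so they are given first, from RefSeq on GRCm38.p6, 5′ to 3′, with the seed in capitals.
miR-29a-3p: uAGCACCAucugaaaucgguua
miR-29c-3p: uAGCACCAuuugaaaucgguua
miR-29b-3p: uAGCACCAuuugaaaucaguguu
miR-29a-5p: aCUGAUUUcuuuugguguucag
miR-29c-5p: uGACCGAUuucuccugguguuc
miR-29b-1-5p: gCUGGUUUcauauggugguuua
miR-29b-2-5p: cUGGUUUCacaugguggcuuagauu
The 3p arms of miR-29a, miR-29b and miR-29c had 1 seed, AGCACCA, and these 3 were the only ones with it among the 1679 mature miRNA names in the RefSeq table. Counting positions from the 5′ end, miR-29a-3p and miR-29c-3p differed over 22 bases by C10U alone. miR-29c-3p and miR-29b-3p differed by G18A, U21G and A22U. The 5p arms had a different seed each.

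The hairpins, with both RefSeq arms in capitals, show which strand each count below came from.
Mir29a: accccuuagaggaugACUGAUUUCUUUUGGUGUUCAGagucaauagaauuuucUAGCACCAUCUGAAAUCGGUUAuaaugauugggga
Mir29c: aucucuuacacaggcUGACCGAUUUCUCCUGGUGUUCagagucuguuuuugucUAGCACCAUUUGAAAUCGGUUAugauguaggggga
Mir29b-1: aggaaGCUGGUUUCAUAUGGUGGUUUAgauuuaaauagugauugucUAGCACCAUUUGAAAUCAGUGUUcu
Mir29a lay at chr6:31062660-31062747 and Mir29b-1 at chr6:31063023-31063093, both on the minus strand with 275 bases between them. In the GENCODE annotation Mir29a overlapped no other gene, and Mir29b-1 overlapped by its 5′ end an exon of the long intergenic non-coding RNA gene Gm27019 (chr6:31063092-31063495). Mir29b-2 lay at chr1:195037040-195037120 and Mir29c at chr1:195037547-195037634, on the plus strand with 426 bases between them. Both were inside an exon of the non-coding transcript A330023F24Rik (chr1:195033823-195037904), and an annotated exon of Cd46 covered them on the opposite strand.

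The liver label was checked on marker miRNAs. All 5 hepatocyte markers were listed in both libraries and held 4.79% and 5.12% of named counts, most of it miR-122-5p, followed by miR-192-5p. Stellate and mesenchymal markers held 0.554% and 0.342%, with 3 and 4 of 5 listed, and the most counted were miR-145a-5p (1060 and 702 counts) and miR-143-3p (628 and 1073). Endothelial markers (miR-126a arms) held 0.0444% and 0.0355%. Of the immune, biliary and erythroid markers 1 each was listed, miR-150-5p at 0.311% and 0.197%, miR-200b-3p at 0.0196% and 0.0303%, and miR-486b-5p in replicate 2 alone at 0.00260%. The libraries held 306351 and 538023 counts of named miRNAs, and all shares are of these totals. In bulk tissue, a lower level from fewer cells of a type cannot be told apart from less RNA per cell.

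miR-29a-3p carried nearly the whole family. Replicate 1 held 1720 of its counts and replicate 2 held 2833, or 0.561% (exact Clopper-Pearson 95% interval 0.535 to 0.589) and 0.527% (0.507 to 0.546) of named counts. It ranked 22 and 21 among all named miRNAs. Within the family it held 98.1% and 98.3% of counts. Both libraries thus placed it at nearly the same level and rank. The intervals cover counting error only, since reads amplified by PCR are not independent molecules.

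The miRNAs nearest to miR-29a-3p in level, by mean absolute difference of log2 share over the 2 libraries, were let-7f-5p (0.11), miR-125b-5p (0.22) and miR-148a-3p (0.24). let-7f-5p belongs to the let-7 family of growth-restraining miRNAs and had 1740 and 2445 counts. miR-148a-3p is abundant in hepatocytes and had 1413 and 2481 counts. With 2 libraries, likeness here means a like level and nothing more.

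The other arms were rare. miR-29c-3p, the closest relative of miR-29a-3p, had 7 counts in replicate 1 and 12 in replicate 2, or 0.00228% (0.000919 to 0.00471) and 0.00223% (0.00115 to 0.00390). It ranked 123 and 132. miR-29b-3p, the third 3p arm, had 4 counts in replicate 2, 0.000743% (0.000203 to 0.00190), and was not listed in replicate 1. All 3 guide arms share the seed shown above, so the counts with that seed, 1727 and 2849 in all, were almost entirely miR-29a-3p.

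Of the 5p arms, miR-29c-5p was the most counted, with 24 counts in replicate 1 and 29 in replicate 2, or 0.00783% (0.00502 to 0.0117) and 0.00539% (0.00361 to 0.00774). miR-29a-5p had 3 counts and 1 count, 0.000979% (0.000202 to 0.00286) and 0.000186% (4.71e-06 to 0.00104). miR-29b-1-5p had 4 counts in replicate 2 and was not listed in replicate 1. The 5p arms together took 1.54% and 1.18% of family counts.

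**Figure D1:**
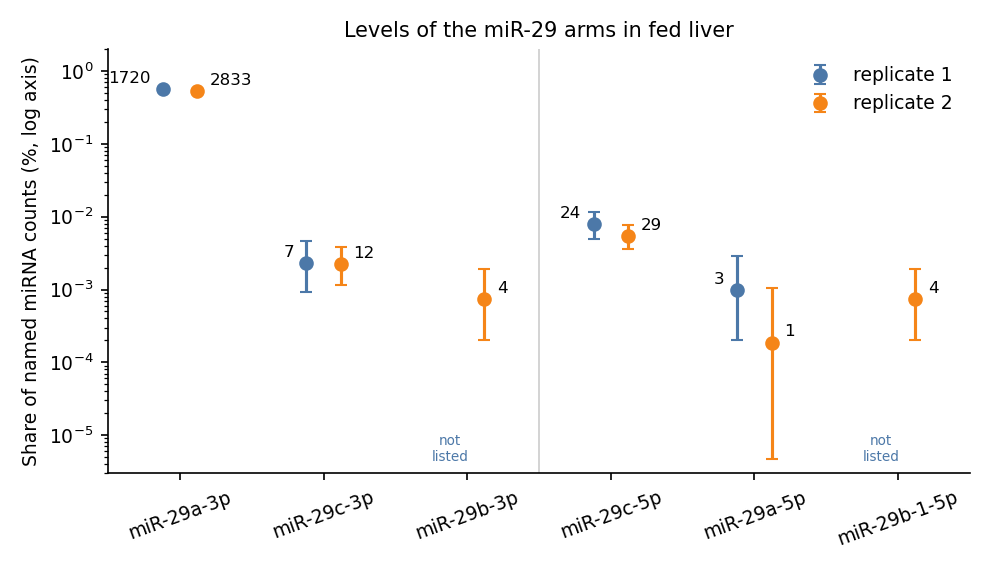
Share of named miRNA counts (percent, log axis) of each miR-29 arm in replicate 1 (blue) and replicate 2 (orange), with 3p arms on the left and 5p arms on the right. Bars are exact 95% intervals for counting error and the digits are counts. miR-29a-3p, at 1720 and 2833 counts, stands far above the other 5 arms, which have 1 to 29 counts.

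The members therefore fell in the order miR-29a-3p, miR-29c-5p, miR-29c-3p, the miR-29b arms and miR-29a-5p. miR-29a-3p exceeded miR-29c-3p 246-fold in replicate 1 (95% interval 119 to 612) and 236-fold in replicate 2 (135 to 457). It exceeded the next arm, miR-29c-5p, 71.7-fold (48.0 to 112) and 97.7-fold (67.9 to 146). The lower neighbours were not all separated: in replicate 2 miR-29c-3p exceeded miR-29b-3p 3-fold with an interval of 0.909 to 12.8, and miR-29b-3p exceeded miR-29a-5p 4-fold with an interval of 0.396 to 197, both of which include equal levels. The 29b arms had equal counts.

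By counts, miR-29a, highest of the 3p arms in both libraries, was lowest of the listed 5p arms. Likewise, miR-29c stood above miR-29b on both arms in replicate 2. In that library miR-29a-5p below miR-29b-1-5p rests on 1 against 4 counts. The interval of miR-29c-3p over miR-29b-3p, given above, includes equal levels. miR-29c-5p exceeded miR-29a-5p 8-fold in replicate 1 (2.43 to 41.5) and 29-fold in replicate 2 (4.81 to 1184), although Mir29a was by far the more counted hairpin. miR-29c-5p also exceeded miR-29b-1-5p 7.25-fold in replicate 2 (2.55 to 28.4). The upper bounds are wide because miR-29a-5p had 3 counts or fewer.

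The split between miR-29a-3p and miR-29c-3p rests on position 10 alone, the C10U difference above. The listed miR-29c-3p had 20 bases and the listed miR-29a-3p 21, so both covered that position. No source used here states how many mismatches the alignment allowed. Whether reads of one arm were counted as the other was not tested.

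The next question was which arm each hairpin kept. Mir29a was almost wholly 3p, as is usual for the family, while Mir29c had more counts on its 5p arm in both libraries. The 5p arm of Mir29a made up 3 of 1723 counts, 0.174% (95% interval 0.0359 to 0.508), in replicate 1 and 1 of 2834, 0.0353% (0.000893 to 0.196), in replicate 2. That of Mir29c made up 24 of 31 counts, 77.4% (58.9 to 90.4), in replicate 1 and 29 of 41, 70.7% (54.5 to 83.9), in replicate 2.

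Arm shares were tested against equal arms by a 2-sided exact binomial test, over all hairpins with both arms listed and at least 20 counts in the library, with Benjamini-Hochberg adjustment. Mir29c passed as a 5p hairpin with adjusted exact p = 0.00373 in replicate 1 and 0.0129 in replicate 2. Its share depends on the 7 and 12 counts of miR-29c-3p, which differs from the far more counted miR-29a-3p by C10U alone. Whether miR-29c-3p reads were counted as miR-29a-3p, which would raise the 5p share of Mir29c, was not tested. In the background, 26 of 55 hairpins (47.3%) were called 5p in replicate 1 and 28 of 63 (44.4%) in replicate 2. Mir29a passed as a 3p hairpin in both libraries, beside 47.3% and 49.2% of hairpins called 3p. Being dominated by 5p or by 3p was thus common among liver hairpins.

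Within the family, the arm shares of Mir29a and Mir29c differed, with p = 7.68e-45 in replicate 1 and 1.20e-58 in replicate 2 by Fisher's exact test (2-sided, 2 such tests). These tests were chosen after the values were seen, so they add no support to the shares above. Their p-values cover counting error only, with single reads as the units. Between the libraries, neither hairpin's arm share differed past the test. Fisher's exact test gave p = 0.155 for Mir29a (adjusted exact p over 48 hairpins 0.616) and p = 0.596 for Mir29c (adjusted 1.00), and 4 of the 48 (8.33%) passed. Mir29b-1 was listed with both arms in replicate 2 only, at 4 counts each, a 5p share of 50% with an interval of 15.7 to 84.3. It fell below the minimum for testing, and no arm preference was detectable at this depth.

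**Figure D2:**
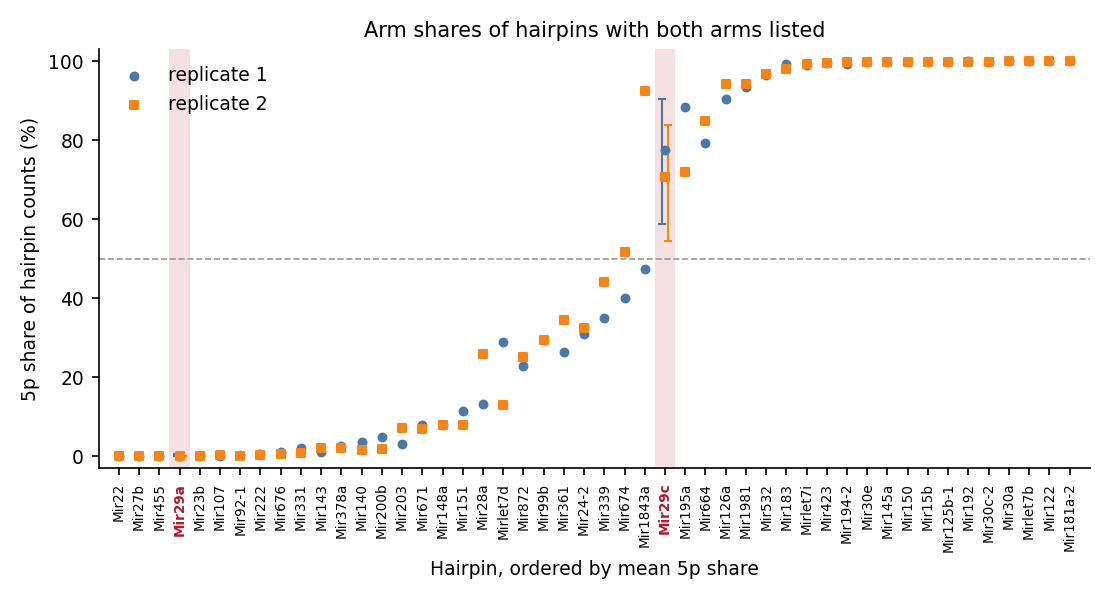
5p share of counts (percent) for the 48 hairpins tested in both libraries, ordered by mean share, with replicate 1 as blue circles and replicate 2 as orange squares. Mir29a and Mir29c are shaded and carry exact 95% intervals. Mir29a lies near the 3p end, number 4 of 48, and Mir29c, at 77.4% and 70.7%, is number 28.

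Ordered by mean 5p share over both libraries, Mir29a was number 4 of 48 from the 3p end at 0.105% ± 0.0982 (SD, n = 2). Its neighbours were Mir455 at 0.0778% ± 0.00184 and Mir23b at 0.123% ± 0.0428, from which it did not differ beyond the spread. Mir29c was number 28 at 74.1% ± 4.73. Next to it stood Mir1843a at 69.9% ± 32.0 and Mir195a at 80.2% ± 11.6, also within the spread.

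The bases listed for each arm showed where its ends lay. All listed 3p members began exactly at the RefSeq 5′ end, so their seeds were the reference seed. At the 3′ end the listed miR-29a-3p was 1 base shorter than RefSeq and miR-29c-3p was 2 bases shorter, in both libraries alike. miR-29b-3p matched the reference at both ends.

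miR-29c-5p was listed 2 bases inward of its RefSeq 5′ end in both libraries, at chr1:195037564-195037586, which gave it another seed. The listed forms in replicate 1 (first line) and replicate 2 (second line) show this, with bases 2 to 8 in capitals.
miR-29c-5p: aCCGAUUUcuccugguguucaga
miR-29c-5p: aCCGAUUUcuccugguguucagu
The listed seed, CCGAUUU, occurred in no mature name of the RefSeq table, where miR-29c-5p has GACCGAU. Compared from their listed 5′ ends in replicate 1, miR-29a-5p and miR-29c-5p differed over 23 bases by U3C, U11C and U12C, so their listed starts correspond. Among named loci that matched a RefSeq arm, 15 of 144 (10.4%) had a shifted 5′ end in replicate 1 and 17 of 160 (10.6%) in replicate 2, and 5 and 4 of them began 2 or more bases inward. miR-29a-5p and miR-29b-1-5p began at the RefSeq end and ran 1 to 3 bases beyond it at the 3′ end.

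In replicate 2 the last listed base of miR-29c-5p differed from the reference hairpin as A23U, counted from the listed 5′ end, and so did that of miR-29a-5p, which rested on 1 read. In replicate 1 neither differed. A last base unlike the reference was listed for 11 loci in replicate 1 (7.75%) and 18 in replicate 2 (11.7%). The files give 1 sequence per locus, so the share of reads with each end is not known from them.

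The levels of hairpins that are transcribed together were compared next. Mir29a and Mir29b-1, whose starts lie 363 bases apart, had 2833 and 4 counts in replicate 2, each hairpin represented by its more counted arm. Their ratio was 708 (95% interval 276 to 2601). No ratio can be given for replicate 1, where Mir29b-1 was not listed.

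All pairs of listed hairpins on the same strand with starts within 10 kb were treated in the same way. Unequal counts passed the exact binomial test in 100% of the 24 pairs in replicate 2, and in 100% of the 19 pairs in replicate 1, so a gap as such is the rule. A pair with an unlisted hairpin has no ratio and is not among these, so wider gaps may lie outside the 24. The Mir29a pair had the widest gap of the 24, whose median ratio was 4.85. The next was Mir191 over Mir425 at 166 (141 to 195), whose interval did not overlap that of the Mir29a pair. With both arms of each hairpin summed, the Mir29a ratio was 354 (180 to 821) on 2834 and 8 counts. It was still the widest, but its interval then overlapped that of Mir191 over Mir425, which was 166 (141 to 195) here too. With starts within 50 kb, the Mir29a pair was the second widest of 28, behind Mirlet7c-1 over Mir125b-2 at 5360 (10720 and 2 counts). That rank rests on keeping only the highest locus of each name. The 25 counts of miR-125b-5p listed at Mir125b-2 were left out by it. Mir29c had no neighbour to compare, as no arm was listed at Mir29b-2.

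**Figure D3:**
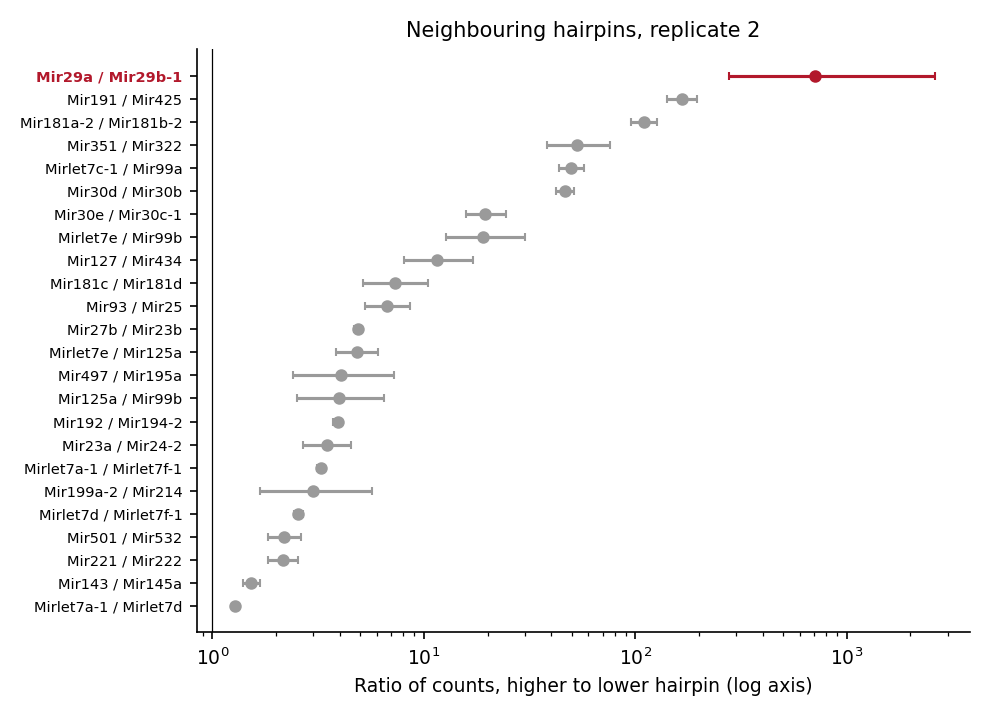
Ratio of counts (log axis) between the higher and the lower hairpin of each of 24 neighbouring pairs in replicate 2, with exact 95% intervals for counting error. The Mir29a to Mir29b-1 ratio of 708, in red, lies above all others, the next being Mir191 to Mir425 at 166.

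The copies of miR-29b could not be told apart by their guide arm. RefSeq gives the same miR-29b-3p for Mir29b-1 and Mir29b-2, and the files list it at Mir29b-1 alone, so its 4 counts may hold reads from either. The 5p arms of the copies do differ, and of these miR-29b-1-5p was listed and miR-29b-2-5p was not, in either library. A hairpin without a listed arm sets no upper limit on its level, since no source used here states the rule by which loci were listed.

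Listing differed by library for the miR-29b arms only. At its share in replicate 2, an arm with 4 counts would correspond to 2.28 counts at the depth of replicate 1. Of the 34 named miRNAs with 4 or fewer counts in replicate 2, 14 (41.2%) were not listed in replicate 1, so the miR-29b arms shared this with many rare miRNAs. Names with 1 count were listed too, 11 in replicate 1 and 10 in replicate 2, miR-29a-5p in replicate 2 among them. They were minor arms of better counted hairpins, as miR-29a-5p was beside 2833 counts of miR-29a-3p. They do not speak to a hairpin with few counts on both arms, like Mir29b-1. Such hairpins were listed in replicate 1, for example miR-338 (5 and 5 counts) and miR-129 (6 and 3). Those counts are above 2.28, and whether a hairpin at that level would be listed was not tested. In all, 32 names were listed in replicate 2 only and 14 in replicate 1 only.

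The members were then compared between the libraries with a 2-sided exact binomial test at TMM effective library sizes, over the 131 miRNAs listed in both with at least 10 counts summed. The test compares these libraries, not conditions. Of the 6 members, 3 could be tested and 0 passed, against 58 of 131 miRNAs (44.3%) in the background. At an unadjusted p under 0.05 the members' count was also 0.

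The log2 ratio of replicate 2 to replicate 1 was 0.07 for miR-29a-3p (95% interval for counting error -0.02 to 0.16), with an adjusted exact p of 0.213. It was 0.09 for miR-29c-3p (-1.33 to 1.71, adjusted exact p = 1.00) and -0.38 for miR-29c-5p (-1.21 to 0.47, adjusted exact p = 0.532). The interval of miR-29a-3p is narrow, while those of the miR-29c arms allow differences of more than 2-fold. The members' median of 0.07 stood beside -0.03 over all tested miRNAs, whose median absolute log2 ratio was 0.35.

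The result for miR-29a-3p depended on the scaling and the count minimum. It passed with no count minimum (0.10, adjusted exact p = 0.0478) and with at least 50 counts summed (0.12, adjusted exact p = 0.0125). With library totals it turned to -0.093 (adjusted exact p = 0.0695), and the median over the 131 miRNAs shifted likewise, to -0.19 from -0.03. The split of all calls moved too, from 28 higher and 30 lower to 19 higher and 45 lower. No direction is therefore given for miR-29a-3p.

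**Figure D4:**
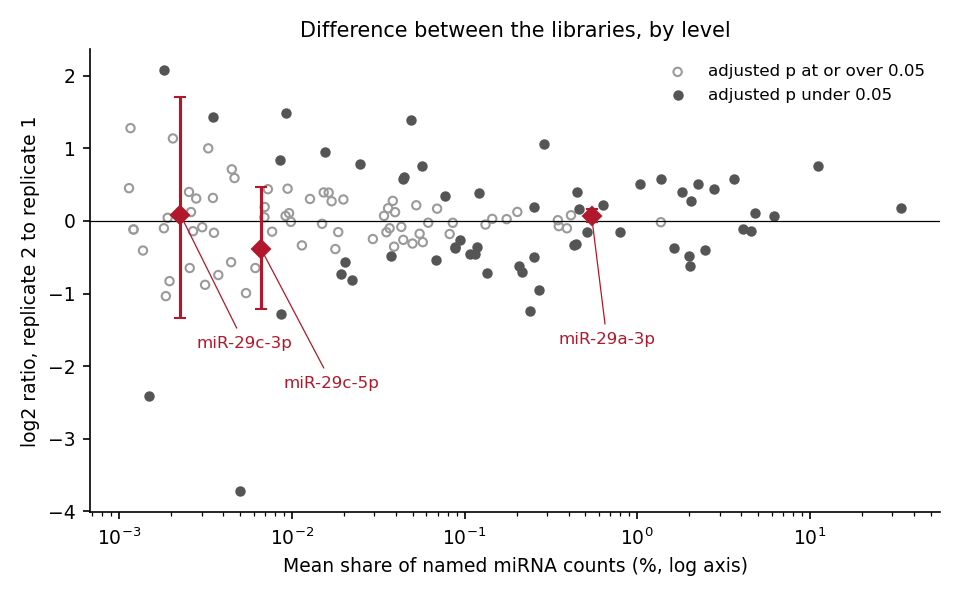
Log2 ratio of replicate 2 to replicate 1 against mean share of named counts (percent, log axis) for 131 miRNAs, filled where the adjusted exact p was under 0.05. The 3 tested miR-29 arms are red diamonds with 95% intervals for counting error, which include 0 for each of them.

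Other miRNAs with reported roles in liver fibrosis, the setting in which miR-29 has been studied most in this organ, were taken as a list of 18. Of these, 14 were listed in either library. Of 13 tested, 3 were higher in replicate 2, 6 were lower and 4 did not pass. Over all 131 tested miRNAs, 21.4% were higher and 22.9% lower. Arms with many counts can pass at small ratios, as miR-30a-5p did at a log2 ratio of -0.14. The list's median log2 ratio was -0.26 beside -0.03 over all tested miRNAs. With library totals 2 were higher and 8 lower. The list's share called exceeded the 44.3% of the background, and nothing particular to the list follows from this description. It shares miR-122-5p, miR-150-5p, miR-199a-5p, miR-200b-3p and miR-214-3p with the marker lists.

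The 4 most counted of the list were all above miR-29a-3p in level. miR-30a-5p, reported as antifibrotic, had 15347 and 21867 counts and miR-122-5p, the hepatocyte miRNA, had 7668 and 16356. let-7b-5p had 7419 and 8334, and miR-30c-5p had 2712 and 3835. miR-21a-5p, reported as profibrotic, lay below miR-29a-3p with 764 and 1372. miR-214-3p, a stellate cell miRNA on the same list, had 8 and 16 counts, near the level of miR-29c-3p.

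The miRNAs nearest to miR-29c-3p in level, over the 2 libraries, were miR-214-5p (7 and 15 counts), miR-22-5p (8 and 14) and miR-330-3p (9 and 13). Of these, miR-22-5p is the minor arm of its hairpin here, beside miR-22-3p with 102898 and 182550 counts. miR-214-5p had about as many counts as its partner miR-214-3p.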

How the data were processed

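Each library has 1 deposited table of raw read counts, in whole numbers, with the position and sequence of every listed locus, per the file headers. RNA was isolated from frozen liver with Trizol and sequencing libraries with a TruSeq small RNA preparation from Illumina, according to the labels. GRCm38 (mm10), Bowtie 1.0.1, cutadapt 1.5 and FastQC 0.11.2 appear in the submitters' processing notes, without roles. No source used here names the program that listed loci.

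Unnamed loci (5.02% and 2.46% of listed counts) were left out of totals and tests. For a name with several loci the highest count was used. An unlisted arm was not treated as 0. Positions counted from 0 and were raised by 1. Hairpins came from GENCODE M21, and sequences from RefSeq (GRCm38.p6) or the deposited files. Python 3.11.15, scipy 1.17.1, edgeR 4.0.16 (TMM) and, as an alternative, DESeq2 1.42.0 size factors were used. Log2 ratios carry a prior count of 0.5, and the adjusted p threshold was 0.05. There is 1 group, so no conditions were compared. The exact binomial tests were checked on simulated counts with counting error alone, so the check does not cover further spread between libraries. Fisher's exact test, the pair ratios and the TMM scaling were not simulated.

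Named miRNAs are the members, their hairpin and genomic neighbours, the 3 nearest in level, the 4 most counted of the fibrosis list, the 2 most counted of each marker list, and the nearest hairpins in each comparison. miR-21a-5p, miR-214-3p, miR-338 and miR-129 were added after their values were seen. Members and lists were chosen with earlier results of these data known. Alternatives comprised summing loci, other denominators, scalings, count minimums and prior counts, unlisted arms as 0, summed arms, a wider window and leaving out each library.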

Additional observations from a re-analysis of the deposited data

How the results depend on the processing

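With 2 libraries, leaving one out gives the value of the other, so these values show the spread and do not test stability. The family's share was 0.536% without replicate 1 and 0.573% without replicate 2. The mean log2 gap between miR-29a-3p and miR-29c-3p was 7.88 and 7.94, the 5p share of Mir29a 0.0353% and 0.174%, and that of Mir29c 70.7% and 77.4%. The share of miR-29a-5p was 0.000186% and 0.000979%. The count of all miRNAs called between libraries ran from 55 with at least 50 counts summed to 76 with unlisted miRNAs as 0, against 58. Without replicate 2 the Mir29a to Mir29b-1 ratio has no value, and with at least 50 counts in the hairpin Mir29c could not be tested. The number of miR-29 arms called between libraries was 1 with no count minimum and 1 with at least 50 counts summed, miR-29a-3p in both cases, against 0 in the main test. The log2 ratios of miR-29a-3p (-0.093) and miR-29c-3p (-0.076) reversed with library totals, and that of miR-29c-3p (-0.012) with a prior count of 2. A change of scaling shifts every log2 ratio by the same amount. With library totals that of miR-29c-5p went from -0.38 to -0.54 and the median over all tested miRNAs from -0.03 to -0.19. The ratio of miR-29c-3p rests on 7 and 12 counts. Why the scalings differ was not tested. Against all listed counts the shares fell together, the family's from 0.554% to 0.532%, miR-29a-3p's from 0.544% to 0.522% and miR-29c-3p's from 0.00226% to 0.00217%. Only the last moved past its SD over the libraries, which was as small as 3.86e-05%. The arms below miR-29a-3p had 29 counts or fewer, which limits every statement on them. No paired analysis was possible because there is 1 group.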

Other observations

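The hairpin sequence listed beside each arm did not always match RefSeq. For miR-29b-1-5p, miR-29c-3p and miR-29b-3p it differed at 1 base in each library that listed them, outside the listed arm. For miR-29a-3p it differed at 0 bases in replicate 1 and 2 in replicate 2, for miR-29a-5p at 0 and 3, and for miR-29c-5p at 1 and 2. Over all named loci inside a RefSeq hairpin, 71.8% in replicate 1 and 76.0% in replicate 2 differed at 1 base or more. For that reason the hairpins printed in the results are those of RefSeq.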
